A study of Homo sapiens with 18 samples.

Results

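Described here are 10 genes of the desmosome and its anchor on keratin filaments, taken by symbol from the expression tables of 2 human cell lines. The members are the 4 desmosomal cadherins DSG2, DSG3, DSC2 and DSC3, the 3 armadillo proteins JUP, PKP1 and PKP3, and the 3 plakins DSP, PPL and EVPL. All 10 were among the 15358 genes of the MCF10A table and all 10 passed the filter on low values, together with 14726 genes in all. In hTERT RPE-1, 7 of the 10 were among the 15257 genes of the table, and all 7 passed the filter among 14527 genes. DSG3, PKP1 and EVPL were not analysed here in hTERT RPE-1.

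RNAseq of polyadenylated RNA was conducted on 18 libraries, 9 per cell line. MCF10A is an immortalised, non-tumorigenic line of human breast epithelium, and hTERT RPE-1 (RPE-1) comes from human retinal pigment epithelium and was immortalised with telomerase. In each line, 3 groups of 3 biological replicates were transfected at 30 nM for 72 h with a non-targeting control siRNA pool (siNT), or a mimic of hsa-miR-28-5p (miR-28) or of hsa-miR-708-5p (miR-708), microRNAs of the MIR-28 family. Every library, siNT included, therefore received a transfected small RNA, and each line stands for 1 established culture. MCF10A has replicates 7, 8 and 9, and RPE-1 has 1, 2 and 3. The comparison asks how the mimics change RNA levels in each line, and both mimics of a line are compared with the same 3 siNT libraries.

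Desmosomes are the junctions that tie the keratin filaments of neighbouring epithelial cells together. The desmogleins and desmocollins are calcium-dependent cadherins that bind across the gap between cells. Inside the cell, plakoglobin (JUP) and the plakophilins bind the cadherin tails and recruit desmoplakin (DSP), the plakin that holds the keratin filaments. Periplakin (PPL) and envoplakin (EVPL) are related plakins that pair with each other, meet desmosomes and keratins, and form part of the scaffold of the cornified envelope in stratified epithelia. MicroRNAs pair through their seed, the bases near the 5′ end, mainly with 3′ UTRs, and lower the stability and translation of the transcript.

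The mature miR-708 is shown because its seed defines the letters searched in the members, and miR-28 has the same seed. The sequence is from RefSeq (GRCh38.p14, chr11:79402077-79402099, minus strand, the MIR708 gene), with bases 2 to 8 in capitals.
hsa-miR-708-5p: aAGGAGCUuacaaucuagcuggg

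Within the members, the complement of this seed, AGCTCCT, was found once in an annotated 3′ UTR, that of DSG3. Counted over 1 transcript per gene (GENCODE 44) and on the transcript's strand only, 18.65% of the 13281 MCF10A genes with a 3′ UTR held AGCTCCT or GCTCCTA at least once, so 1 member of 10 stands beside a background of that share. The site lies in exon 16 of 16, at chr18:31477267-31477296 on the plus strand, with the match in capitals.
DSG3: attttacactgAGCTCCTtcctacacgtct

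The shorter match GCTCCT, which is contained in the longer one and was counted only where the longer one was absent, was found once more in DSG3, once in PKP1, and at 2 places each in DSC2 and JUP. At least this shorter match was present in 35.6% of the MCF10A genes. The 4 sites in DSC2 and JUP, the genes with the shorter match that were analysed in both lines, are shown 5′ to 3′ with the match in capitals. The DSC2 sites lie in exon 16 of 16 on the minus strand, at chr18:31064952-31064981 and chr18:31059188-31059217. Those of JUP lie in exon 14 of 14 on the minus strand, at chr17:41755628-41755657 and chr17:41755269-41755298.
DSC2 first site: gtgtgtctggggGCTCCTggtaatcattac
DSC2 second site: gcaagctaagctGCTCCTtatttctcctgt
JUP first site: gctgaaacctgcGCTCCTtttttgggggga
JUP second site: ggatagtgttctGCTCCTgcttttctgtcc

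None of these letters was in the annotated 3′ UTRs of DSG2, DSC3, DSP, PKP3, PPL or EVPL. Upstream of the 3′ UTR, in the 5′ UTR and coding sequence, AGCTCCT or GCTCCTA was found at 4 places in EVPL, 2 in JUP and 1 each in DSC2, DSP, PKP1 and PPL. That is 6 of the 10 members, and 26.1% of the MCF10A genes held one there. The stretches searched ran from 2370 nt in JUP to 8861 nt in DSP, with 6210 nt in EVPL. The share over all genes was not matched on this length, so the counts do not show an excess in the members. A match describes letters in a transcript model and not a site of binding.

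The deposited value of a gene in a library comes from estimated reads scaled by the size factor of the library and has no length correction. Low values rise in steps, and the step gives a depth of 19.4–31.7 M reads on genes in MCF10A (median 26.6) and 23.8–40.3 M in RPE-1 (median 34.1). A floor of 3 reads corresponds to values of 2.49–4.02 and 2.35–4.41, which covers counting error only, since the reads carry no molecular identifiers. Of the 8 basal breast epithelial markers, all 8 were tested in MCF10A, whereas in RPE-1 only 2 were listed and KRT5, KRT14, CDH1 and EPCAM were not analysed. In RPE-1, 9 of 10 retinal pigment epithelial markers were listed, but not RPE65. KRT8 and KRT18 gave most of their sum with siNT and a smaller share of it with miR-708. In RPE-1, 2 libraries stood apart. In siNT replicate 3 the pigment cell genes PMEL and TYRP1 had values of 544 and 561, against at most 13.8 and 12.2 in the other 8 libraries. In miR-28 replicate 1 ribosomal RNA genes took 15.1% of the summed values, against 4.23–7.20% in the others. The fold changes of the members in RPE-1 are therefore also given without these libraries, one at a time. Of the 69 other genes listed and tested in RPE-1, 32 were called with miR-28 and 49 with miR-708. Without siNT replicate 3, 29 and 47 of them kept their call, and without miR-28 replicate 1, 29 and 49 did. The calls lost are named beside those genes that are described, and no called gene turned its direction. In bulk RNA, fewer cells that express a gene and less of its RNA per cell cannot be told apart.

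With siNT, the members spanned a wide range of levels, which can be compared between genes only per kb of transcript. In MCF10A, DSP was highest at 7144 ± 637 per kb (SD, n = 3), the 98.6th percentile of the 14572 genes with a transcript length. DSG3 followed at 3969 ± 858 per kb. DSC3 at 2020 ± 165, DSG2 at 1919 ± 182 and JUP at 1663 ± 325 per kb had overlapping ranges, so their order is not resolved. PPL at 823 ± 220 and DSC2 at 822 ± 157 per kb also overlapped. PKP3 at 471 ± 53.2, EVPL at 114 ± 20.4 and PKP1 at 21.5 ± 5.53 per kb were the lowest, and their ranges were separate. The plakins of the members thus lay at the top, in the middle and near the bottom of the order.

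In RPE-1 with siNT, DSP at 2036 ± 535 and DSG2 at 1840 ± 54.3 per kb led with overlapping ranges. JUP at 857 ± 140, DSC3 at 344 ± 46.5, PPL at 146 ± 25.4 and DSC2 at 102 ± 8.92 per kb followed with separate ranges. PKP3 was lowest at 5.36 ± 0.413 per kb, the 8.76th percentile of its table. The tables were scaled separately, so levels were not tested between the lines. Values per kb rest on 1 transcript per gene, which for DSC2 is 12331 nt long, with 9175 nt of 3′ UTR.

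**Figure D1:**
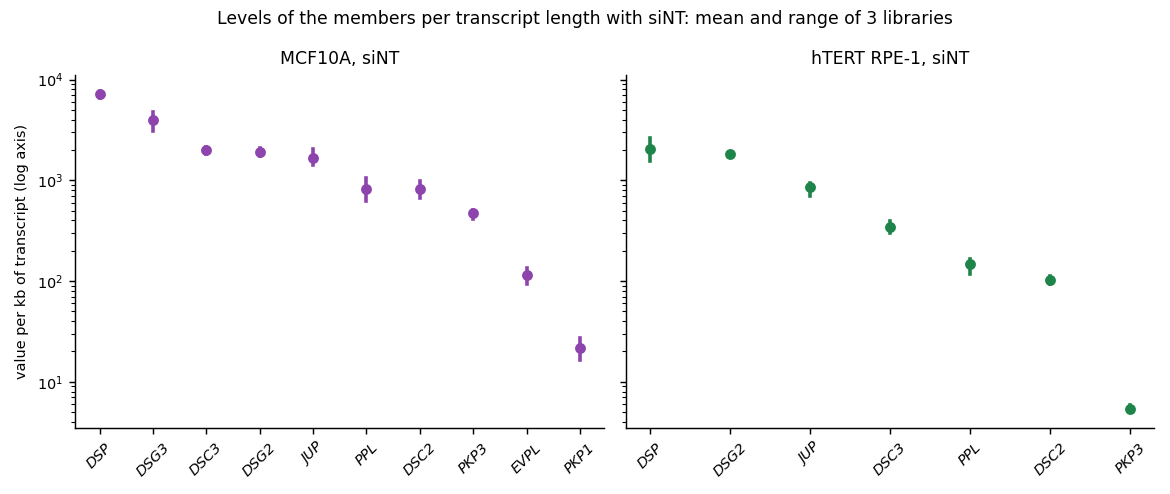
Value per kb of transcript (log axis) of each member with siNT in MCF10A (left) and RPE-1 (right), as the mean (point) and range (line) of 3 libraries. DSP leads in MCF10A and overlaps DSG2 in RPE-1, and the lowest members are PKP1 at 21.5 per kb in MCF10A and PKP3 at 5.36 per kb in RPE-1.

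Of the cadherins, DSG2 (gene at chr18:31498177-31549008), the desmoglein found in simple as well as stratified epithelia, stayed within a narrow range in every group. In MCF10A, the values in replicates 7, 8 and 9 were 11952, 9882 and 10970 with siNT, 10711, 11502 and 11180 with miR-28, and 11756, 11944 and 12257 with miR-708. In RPE-1, the values in replicates 1, 2 and 3 were 10162, 10498 and 10780 with siNT, 9836, 9448 and 11138 with miR-28, and 10595, 9455 and 10634 with miR-708. Each mimic group overlapped the siNT group of its line. The log2 fold changes against siNT were 0.03 with miR-28 (95% confidence interval -0.19 to 0.25) and 0.14 with miR-708 (-0.08 to 0.35) in MCF10A, and none was called. They were -0.05 (-0.25 to 0.15) and -0.04 (-0.24 to 0.17) in RPE-1, and none was called there either. Without siNT replicate 3 they were -0.030 and -0.016, and without miR-28 replicate 1 they were -0.030 and -0.037. Scaled by library total instead, DSG2 was called higher with miR-708 in both lines, at 0.28 in MCF10A (limma, Benjamini-Hochberg adjusted p = 0.042) and 0.28 in RPE-1 (adjusted p = 0.0295), where the median of all genes also moved up to 0.14 and 0.32. DSG2-AS1 overlaps exons of DSG2 on the opposite strand and had values of at most 19.9 in MCF10A. Whether reads were counted by strand is not given in the sources used here.

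DSG3 (chr18:31447741-31478702), the desmoglein of the basal layers of stratified epithelia, was analysed in MCF10A. Its values were 26697, 17150 and 22587 with siNT, 18060, 14679 and 13336 with miR-28, and 18381, 13842 and 12356 with miR-708. The lowest siNT library, replicate 8, lay below replicate 7 of both mimics, so the groups overlapped. DSG3 fell with miR-708 by 0.57 on the log2 scale ± 0.19 (SE), to 67.1% of the siNT mean (limma, Benjamini-Hochberg adjusted p = 0.0383). With miR-28 the difference was -0.52 ± 0.19 and was not called (adjusted p = 0.0729). Replicate 7 was the highest library in each of the 3 groups, and with the replicate number as a block both differences were called (adjusted p = 0.00291 and 0.00799). Without the block, the call with miR-708 was lost when siNT replicate 7 (adjusted p = 0.141) or 9 (0.101), miR-28 replicate 8 (0.0553) or miR-708 replicate 8 (0.112) or 9 (0.149) was left out, when values were scaled by library total (0.0931), and without the mean trend (0.0772). The difference with miR-28 was called when siNT replicate 8 (0.0376), miR-28 replicate 7 (0.0441) or miR-708 replicate 7 (0.0421) was left out.

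DSC2 (chr18:31058840-31102421), the most widely expressed desmocollin, fell with both mimics in RPE-1. Its values there were 1149, 1368 and 1269 with siNT, 712, 548 and 722 with miR-28, and 390, 416 and 334 with miR-708. The 3 groups did not overlap, with siNT highest and miR-708 lowest. The mean was 52.4% of siNT with miR-28 and 30.1% with miR-708. The log2 fold change was -0.94 ± 0.13 (SE) with miR-28 (limma, adjusted p = 0.000285) and -1.73 ± 0.13 with miR-708 (adjusted p = 2.27e-06), and both calls held under all 17 alternatives. Without siNT replicate 3 these were -0.93 and -1.73, and without miR-28 replicate 1 they were -0.999 and -1.73.

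In MCF10A, DSC2 was not called with either mimic. Its values were 12135, 8264 and 9995 with siNT, 14529, 10014 and 7803 with miR-28, and 9274, 7355 and 6728 with miR-708. All groups overlapped, and the miR-28 libraries spread over the widest range. The log2 fold changes were 0.06 with miR-28 (95% confidence interval -0.41 to 0.53) and -0.38 with miR-708 (-0.84 to 0.09). With the replicate block the latter was called (limma, adjusted p = 0.0298).

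DSC3 (chr18:30989365-31042742), the desmocollin of the basal layers of stratified epithelia, was lower with miR-708 in both lines. In MCF10A, its values were 16398, 13949 and 15607 with siNT, 13830, 12885 and 13359 with miR-28, and 12742, 9775 and 10090 with miR-708. The 3 MCF10A groups did not overlap and stood in that order. DSC3 fell in MCF10A with miR-708 by 0.50 on the log2 scale ± 0.12, to 71.0% of siNT (limma, adjusted p = 0.00869), and this call held under all 17 alternatives. With miR-28 the difference was -0.19 ± 0.12 and was not called (adjusted p = 0.264).

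In RPE-1, the values of DSC3 were 2261, 2598 and 2966 with siNT, 3765, 1989 and 4000 with miR-28, and 1842, 1435 and 1721 with miR-708. All 3 miR-708 libraries were below all others, and the miR-28 libraries lay on both sides of siNT, with replicate 2 lowest. DSC3 fell with miR-708 by 0.65 on the log2 scale ± 0.23, to 63.9% of siNT (limma, adjusted p = 0.0304). This call was lost when siNT replicate 2 (adjusted p = 0.0674) or 3 (0.104) or miR-708 replicate 2 (0.104) or 3 (0.0576) was left out, and when the values were scaled by library total (0.215) or fitted without the mean trend (0.0589). With miR-28 the difference was 0.26 ± 0.23 (adjusted p = 0.375). Without miR-28 replicate 2 it was 0.58 and called higher (adjusted p = 0.00552), and without replicate 1 of that group it was 0.12 and not called.

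**Figure D2:**
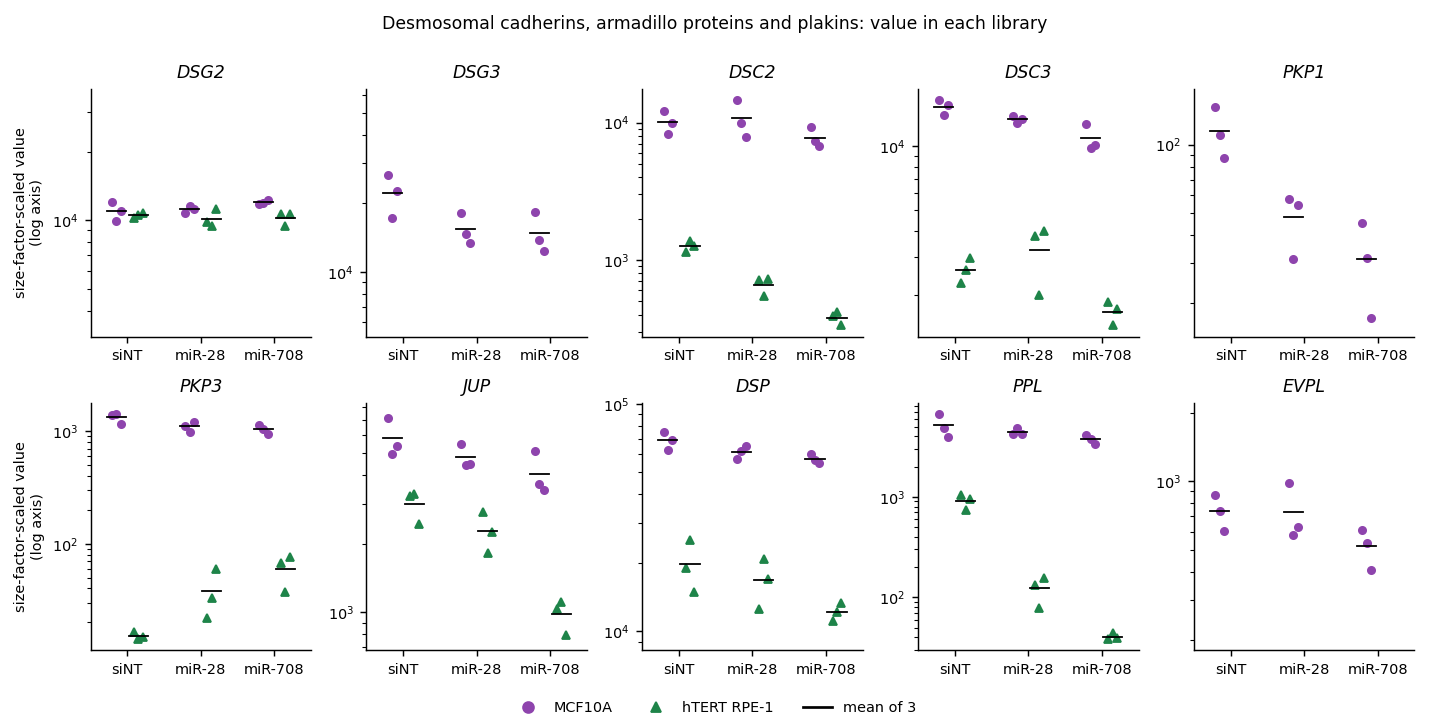
Deposited size-factor-scaled value (log axis) of each member in each library by treatment, with circles for MCF10A and triangles for RPE-1, and the mean of 3 libraries as a black line. PPL, DSC2 and JUP step down and PKP3 steps up in RPE-1, while DSG2 lies between 9448 and 12257 in all 18 libraries.

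Among the armadillo proteins, JUP (chr17:41754609-41786711), plakoglobin, which serves both desmosomes and adherens junctions, fell with miR-708 in both lines. In RPE-1, its values were 3246, 3326 and 2442 with siNT, 2755, 1829 and 2253 with miR-28, and 1031, 1114 and 796 with miR-708. The miR-708 libraries lay far below all others, whereas replicate 1 of miR-28 was above siNT replicate 3. The log2 fold change with miR-708 was -1.62 ± 0.18, or 32.6% of siNT (limma, adjusted p = 2.31e-05), and it was -1.76 without siNT replicate 3. With miR-28 it was -0.41 ± 0.18 and not called (adjusted p = 0.0825), but it was called without siNT replicate 3 (-0.55, adjusted p = 0.0358) and without miR-28 replicate 1 (-0.55, adjusted p = 0.0216).

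In MCF10A, the values of JUP were 7119, 4961 and 5403 with siNT, 5501, 4430 and 4469 with miR-28, and 5096, 3658 and 3435 with miR-708. Replicate 7 was the highest library of each group, and the groups overlapped. JUP fell with miR-708 by 0.52 on the log2 scale ± 0.17, to 69.7% of siNT (limma, adjusted p = 0.0341). The call was lost without siNT replicate 7 (adjusted p = 0.131) or 9 (0.0590) or miR-708 replicate 8 (0.115) or 9 (0.135), when values were scaled by library total (0.0872), and without the mean trend (0.0781). With the block it was called at an adjusted p of 0.000705, and the difference with miR-28, -0.27 ± 0.17 without the block, was called as well (adjusted p = 0.0430).

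PKP1 (chr1:201283506-201332989), the plakophilin of stratified epithelia, was analysed in MCF10A, where it had the largest fold changes of the members. Its values were 146, 110 and 87.6 with siNT, 57.7, 31.5 and 54.2 with miR-28, and 44.98, 31.6 and 17.2 with miR-708. All 6 mimic libraries were below all 3 siNT libraries. PKP1 fell by 1.26 on the log2 scale ± 0.38 with miR-28, to 41.7% of siNT (limma, adjusted p = 0.0339), and by 1.91 ± 0.38 with miR-708, to 27.3% (adjusted p = 0.00303). The second call held under all 17 alternatives. The first was lost without siNT replicate 7 (adjusted p = 0.116), 8 (0.0841) or 9 (0.0509), without miR-28 replicate 8 (0.125) or 9 (0.0591), and without the mean trend (0.0515). These values are low, and the pseudocount of 1 understates their change.

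PKP3 (chr11:392596-404908), the most widely expressed epithelial plakophilin, was called higher in RPE-1 and was not called in MCF10A, where its differences were negative. In RPE-1, its values were 16.4, 14.2 and 14.7 with siNT, 21.8, 32.8 and 59.4 with miR-28, and 67.5, 37.1 and 75.7 with miR-708. Every mimic library was above every siNT library, although all values were low. PKP3 rose there by 1.16 on the log2 scale ± 0.38 with miR-28 (limma, adjusted p = 0.0278) and by 1.86 ± 0.38 with miR-708, to 398% of siNT (adjusted p = 0.00153). The first call was lost without siNT replicate 1 (adjusted p = 0.0548), 2 (0.0711) or 3 (0.0613) or miR-28 replicate 3 (0.108), and the second held under all 17 alternatives. Without miR-28 replicate 1 they were 1.49 and 1.86, and without siNT replicate 3 they were 1.15 and 1.85.

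In MCF10A, PKP3 had values of 1405, 1420 and 1153 with siNT, 1124, 995 and 1210 with miR-28, and 1143, 1057 and 938 with miR-708. The miR-708 libraries were all below siNT replicate 9, the lowest of its group. The differences were -0.25 ± 0.12 (limma, adjusted p = 0.151) and -0.34 ± 0.12 (adjusted p = 0.0506), and neither was called. The latter was called with the block (adjusted p = 0.0341), with a filter of at least 50 (0.0476), and without siNT replicate 9 (0.0322) or miR-708 replicate 7 (0.0314).

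Of the plakins, PPL (chr16:4882507-4937148) had the largest change of any member. In RPE-1, its values were 1045, 738 and 960 with siNT, 134, 78.7 and 155 with miR-28, and 38.4, 43.8 and 39.1 with miR-708. The 3 groups were far apart, and all libraries stayed above the floor of 3 reads. The mean fell from 914 ± 159 (SD, n = 3) with siNT to 123 ± 39.4 with miR-28 and 40.4 ± 2.89 with miR-708, which is 13.4% and 4.42% of siNT. The log2 fold changes were -2.93 ± 0.24 (limma, adjusted p = 7.84e-06) and -4.45 ± 0.24 (adjusted p = 2.67e-07). Both calls held under all 17 alternatives, with values of -3.13 to -2.64 and -4.60 to -4.14. Without siNT replicate 3 they were -2.89 and -4.41, and without miR-28 replicate 1 the first was -3.02.

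In MCF10A, PPL had values of 6635, 4863 and 3934 with siNT, 4172, 4802 and 4168 with miR-28, and 4145, 3797 and 3356 with miR-708. The siNT libraries spread widely and replicate 9 lay below the miR-28 libraries and among those of miR-708. The differences of -0.20 ± 0.16 (limma, adjusted p = 0.398) and -0.42 ± 0.16 (adjusted p = 0.0678) were not called. The latter was called with the block (adjusted p = 0.0176) and without siNT replicate 9 (0.0168).

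DSP (chr6:7541671-7586714), the main keratin anchor of the desmosome, fell with miR-708 in RPE-1. Its values there were 19017, 25251 and 14948 with siNT, 12550, 20702 and 17024 with miR-28, and 11063, 12193 and 13263 with miR-708. The miR-708 libraries were all below siNT, while the miR-28 libraries lay among siNT and below. The log2 fold change with miR-708 was -0.67 ± 0.21, or 61.7% of siNT (limma, adjusted p = 0.0161), and with miR-28 it was -0.23 ± 0.21 (adjusted p = 0.380). The call was lost without siNT replicate 2 (-0.47, adjusted p = 0.0680), without miR-708 replicate 1 (-0.60, adjusted p = 0.0569) and with scaling by library total (-0.35, adjusted p = 0.167). Without siNT replicate 3 it was -0.85, and with miR-28 -0.42, and without miR-28 replicate 1 they were -0.67 and -0.039.

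In MCF10A, DSP had values of 75277, 62929 and 69630 with siNT, 57049, 61806 and 65454 with miR-28, and 60310, 56763 and 55077 with miR-708. All 3 miR-708 libraries were below siNT, but the adjusted p was 0.178 (limma). The differences were -0.17 (95% confidence interval -0.49 to 0.15) and -0.27 (-0.59 to 0.05), and neither was called, with the block included.

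EVPL (chr17:76006845-76027306), the partner of PPL, was analysed in MCF10A. Its values were 868, 742 and 604 with siNT, 980, 577 and 631 with miR-28, and 611, 534 and 406 with miR-708. The groups overlapped, and replicate 7 was the highest library of each. The differences of -0.04 ± 0.22 (limma, adjusted p = 0.910) and -0.52 ± 0.22 (adjusted p = 0.0861) were not called. The latter was called with the block (adjusted p = 0.00724) and without miR-28 replicate 7 (0.0360).

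**Figure D3:**
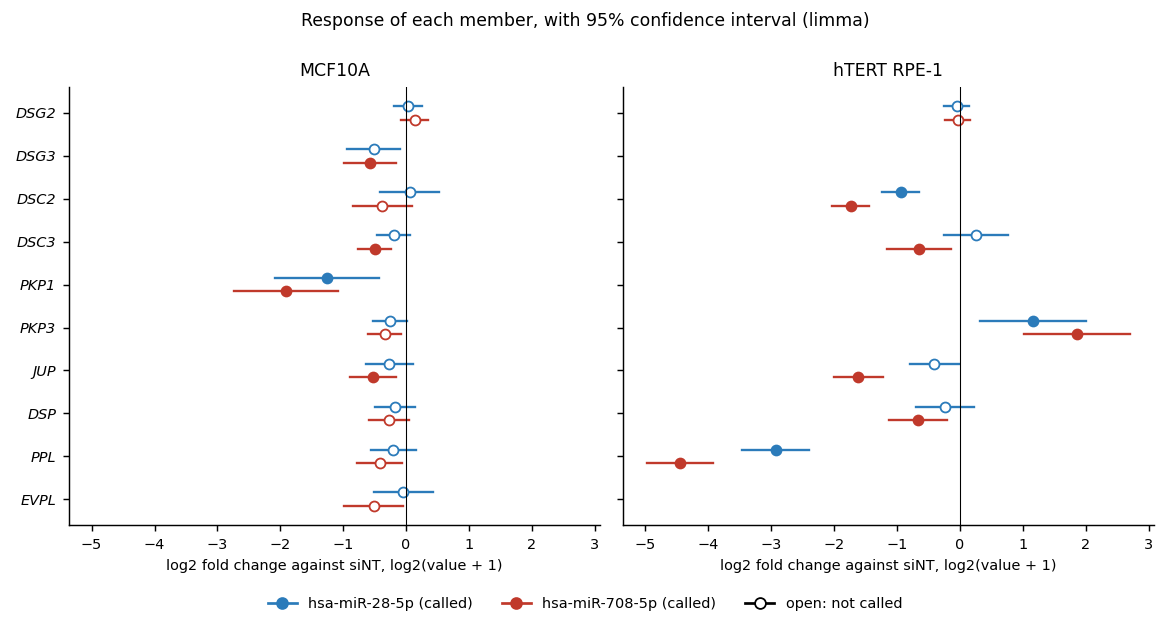
Log2 fold change against siNT of each member, on the log2(value + 1) scale, with its 95% confidence interval, in MCF10A (left, 10 members) and RPE-1 (right, 7 members). Filled points were called at an adjusted p below 0.05 (limma), and the farthest from 0 is PPL in RPE-1, at -2.93 and -4.45.

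Counted over the members, miR-28 gave 1 call of 10 in MCF10A (PKP1, lower), where 22.7% of all genes tested were called, 12% lower and 10.7% higher. With miR-708, 4 of 10 were called in MCF10A (DSG3, DSC3, JUP and PKP1, all lower), beside 32.8% of all genes, 17.3% lower and 15.5% higher. An unadjusted p below 0.05 was reached by 2 and 7 members, beside 37% and 44% of all genes. The replicate block, for which pairing by number is not settled, raised the counts to 3 and 8. The same block called 29.9% of all genes with miR-28 (15.5% lower) and 39.5% with miR-708 (20.4% lower). The 8 with miR-708 were all members other than DSG2 and DSP, and all were lower. The median log2 fold change of the members was -0.20 with miR-28 and -0.46 with miR-708, against 0.0056 and -0.0047 over all genes. Leaving out 1 library gave 0 to 2 calls with miR-28 and 2 to 5 with miR-708.

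In RPE-1, miR-28 gave 3 calls of 7 (DSC2 and PPL lower, PKP3 higher), where 46.8% of all genes were called, 23.5% lower and 23.3% higher. With miR-708, 6 of 7 were called (DSC2, DSC3, JUP, DSP and PPL lower, PKP3 higher), beside 62.1% of all genes, 31.2% lower and 30.9% higher. DSG2 was the exception. The medians of the members were -0.23 and -0.67 on the log2 scale, against 0.0061 and 0.0021 over all genes. 

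The mimics were also compared directly. In MCF10A, no member was called between miR-708 and miR-28 by limma, beside 1.55% of all genes (1.28% higher and 0.265% lower), and DSC3 and EVPL reached an unadjusted p below 0.05, beside 15.8% of all genes. The values of miR-708 minus miR-28 ran from -0.65 for PKP1 (95% confidence interval -1.48 to 0.18) to 0.11 for DSG2 (-0.11 to 0.32).

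In RPE-1, 4 of 7 members were lower with miR-708 than with miR-28, where 21.2% of all genes were called, 11.4% lower and 9.88% higher. PPL was lower by a log2 difference of -1.52 ± 0.24 (limma, adjusted p = 0.00242), JUP by -1.21 ± 0.18 (adjusted p = 0.00185) and DSC2 by -0.79 ± 0.13 (adjusted p = 0.00324). All 3 of these calls held under every one of the 17 alternatives. DSC3 was lower by -0.91 ± 0.23 (adjusted p = 0.0196), a call lost without miR-28 replicate 1 (adjusted p = 0.0523) or 3 (0.0789) or miR-708 replicate 2 (0.0666) or 3 (0.0559). DSP, at -0.44 ± 0.21, was called only without miR-28 replicate 1 (-0.63, adjusted p = 0.0467). Neither DSG2, at 0.01 (95% confidence interval -0.19 to 0.22), nor PKP3, at 0.70 (-0.14 to 1.54), was called.

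Whether the response differed between the lines was tested on the fold changes of the 7 members analysed in both, over 13339 genes. With miR-28, 3 of 7 differed (DSC2, PPL and PKP3), beside 23.4% of all genes, 12.1% with the higher response in RPE-1 and 11.3% with the lower. With miR-708, 4 of 7 differed (DSC2, PPL, PKP3 and JUP), beside 39.8% of all genes, 20.2% higher and 19.6% lower. PPL had the largest difference, with a response in RPE-1 that was lower by -2.73 ± 0.29 with miR-28 and by -4.03 ± 0.29 with miR-708 on the log2 scale. For DSG2, DSC3 and DSP no difference between the lines was called with either mimic. The 95% confidence intervals were -0.36 to 0.20, -0.094 to 1.005 and -0.59 to 0.47 with miR-28, and -0.45 to 0.11, -0.69 to 0.41 and -0.93 to 0.13 with miR-708. Without RPE-1 miR-28 replicate 2, the difference of DSC3 with miR-28 went from 0.46 to 0.78 and was called (adjusted p = 0.00455).

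The remaining genes of the desmosome were counted from a list of 6. PKP2, the plakophilin of simple epithelia and heart, fell with both mimics in both lines. In MCF10A it went from 3498 ± 83.0 (SD, n = 3) with siNT to 2310 ± 39.8 and 1808 ± 309, with log2 fold changes of -0.60 (limma, adjusted p = 0.00421) and -0.97 (adjusted p = 0.000141). In RPE-1 it went from 2617 ± 103 to 1214 ± 153 and 798 ± 56.7, with -1.11 (adjusted p = 1.76e-05) and -1.71 (adjusted p = 4.48e-07). PKP2 was therefore called in all 4 comparisons with siNT, which none of the 7 members analysed in both lines was. PKP1, analysed in MCF10A only, was called in both of its comparisons with siNT. In MCF10A, the desmogleins DSG1 and DSG4 were lower with miR-708 alone among the calls, at -1.26 (adjusted p = 0.0272) and -1.95 (adjusted p = 0.00692). In RPE-1, DSC1 at -1.29 (adjusted p = 0.00767) and PKP4 at -0.38 (adjusted p = 0.00745) were called lower with miR-708, and PERP, a desmosomal membrane protein, was called higher with miR-28 at 0.32 (adjusted p = 0.0211), a call lost without siNT replicate 3 (0.0601) or miR-28 replicate 1 (0.0684). In MCF10A, PKP4 and PERP were not called.

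Plakins outside the members were called in RPE-1 only, where 2 of 4 fell with miR-28 and 3 of 4 with miR-708 by limma. Of all genes there, 23.5% and 31.2% were called lower. In MCF10A 0 of 4 were called with either mimic, where 12% and 17.3% of all genes were called lower. For the difference between the lines itself, 2 of 4 were called with each mimic, beside 23.4% and 39.8% of all genes. Epiplakin (EPPK1), which binds keratins, had values of 243, 305 and 123 with siNT, 55.6, 54.3 and 76.9 with miR-28, and 14.9, 1.90 and 16.2 with miR-708 in RPE-1. One of its miR-708 libraries was thus below the floor of 3 reads, and siNT replicate 3 was the lowest of its group. The log2 fold changes were -1.75 (adjusted p = 0.0349) and -4.50 (adjusted p = 9.13e-05), the latter dependent on the pseudocount, and the first was not called without miR-28 replicate 1 (-1.68, adjusted p = 0.0603). MACF1, which links actin and microtubules, fell from 60948 ± 1653 to 31109 ± 3424 and 25768 ± 1920, at -0.98 (adjusted p = 9.72e-05) and -1.24 (adjusted p = 8.40e-06). PLEC, plectin, was called lower with miR-708 at -0.67 (adjusted p = 0.00177). With miR-28 it was -0.37 and not called (adjusted p = 0.0526), but it was called without siNT replicate 3 (-0.53, adjusted p = 0.00422). DST, at -0.11 and -0.23, was not called.

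The keratins that desmosomes hold moved in different sets in the lines. In RPE-1, 3 of 4 listed filament genes were called lower with each mimic, beside 23.5% and 31.2% of all genes. These 3 were all the keratins listed there. The other gene, VIM, encodes vimentin and was not called, at -0.20 (limma, adjusted p = 0.311) and -0.29 (adjusted p = 0.129). KRT8 and KRT18 are the keratin pair of simple epithelia. KRT8 went from 14933 ± 810 (SD, n = 3) to 4921 ± 336 and 2092 ± 51.0, with log2 fold changes of -1.60 (limma, adjusted p = 5.62e-07) and -2.83 (adjusted p = 1.20e-08). KRT18 was lower at -1.21 and -1.95, and KRT7 at -1.50 and -1.86. In MCF10A, 2 of 10 filament genes were called lower with miR-28 and 4 of 10 with miR-708, beside 12% and 17.3% of all genes. KRT14 and KRT5, the keratin pair of basal cells, were lower at -1.71 (adjusted p = 0.000262) and -2.29 (adjusted p = 1.26e-05) and at -0.46 (adjusted p = 0.0489) and -0.91 (adjusted p = 0.00116). KRT8 and KRT18 were not called there.

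**Figure D4:**
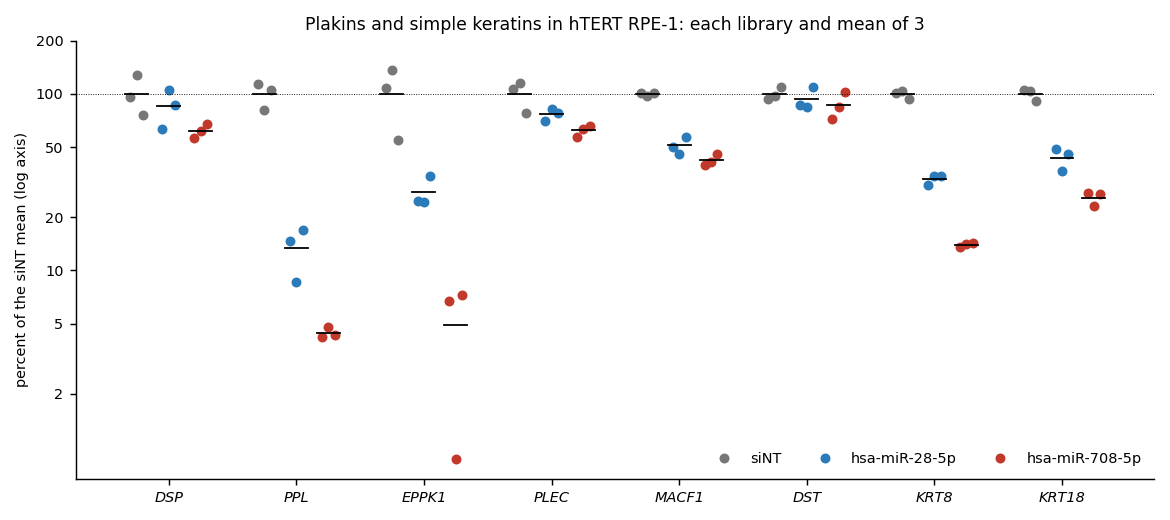
Value of 6 plakins and of KRT8 and KRT18 in each RPE-1 library, as a percentage of the siNT mean (log axis), with the mean of 3 libraries as a black line. PPL means are 13.4% and 4.42% with the mimics, EPPK1 has 1 miR-708 library below the floor of 3 reads, and the DST groups overlap.

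Marker lists of cell types differed between the groups as well. In MCF10A, the summed value of the 8 basal breast epithelial markers was 164462–180537 with siNT, 107703–118238 with miR-28 and 83074–106913 with miR-708, and 3 and 4 of the 8 were called lower. The sum of the 6 of 7 mesenchymal markers listed was 38608–62907, 40726–113889 and 62345–130512, with overlapping groups and 1 gene, COL1A1, called higher with each mimic. In RPE-1, the sum of 9 retinal pigment epithelial markers was 31226–33079, 12845–13973 and 8642–8925. Of the 8 of these that were tested, 2 were called higher and 6 lower with miR-28, and 1 higher and 4 lower with miR-708. The sum of the 7 mesenchymal markers in RPE-1 was 1403013–2220617, 1593337–2074822 and 1052286–1213068, lowest with miR-708, and 1 and 3 of the 7 were called lower. Among them COL1A1, a chain of type I collagen, was lower at -2.17 (adjusted p = 0.00764) and -3.86 (adjusted p = 0.000125). The sum of the 2 basal markers listed in RPE-1 was 236–320, 390–747 and 947–1133, with groups that did not overlap. It consisted mostly of LAMB3, a laminin chain called higher with both mimics. The other, TP63, went the opposite way with miR-708, called lower at -1.22 (limma, adjusted p = 0.0209), and was not called with miR-28. The sum therefore follows LAMB3 and not both markers. The 2 leukocyte and endothelial markers listed in each table, of 7, summed in MCF10A to 421–672 with siNT, 255–303 with miR-28 and 347–395 with miR-708, so these groups did not overlap, and both (CD14 and PECAM1) were called lower with miR-28 and PECAM1 also with miR-708. In RPE-1 their sum was 4.71–19.98 over all libraries and they were not tested, and the other 5 of each table were not analysed here. The part of these lists in the results on the members was not tested.

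Genes of other junctions were called in both directions. Beside the counts of this and every other list stand the shares of all genes. In MCF10A 10.7% were called higher and 12% lower with miR-28, and 15.5% and 17.3% with miR-708. In RPE-1 these shares were 23.3% and 23.5%, and 30.9% and 31.2%. In MCF10A, adherens junction genes gave 1 call higher and 1 lower of 12 with each mimic. NECTIN1, an immunoglobulin-like adhesion protein, was lower in MCF10A at -0.999 (limma, adjusted p = 0.000886) and -1.38 (adjusted p = 6.24e-05), but higher in RPE-1 at 1.46 (adjusted p = 3.28e-05) and 1.35 (adjusted p = 2.36e-05). NECTIN4 was higher with both mimics in both lines, at 0.63 and 0.61 in MCF10A. Its values in RPE-1 were low, at 3.68 ± 0.962 (SD) with siNT, near the floor of 3 reads, and 21.0 ± 6.14 and 29.4 ± 14.1 with the mimics. In RPE-1, 2 of 11 adherens junction genes were called higher with each mimic, and 1 and 6 lower. Between the mimics 6 of 11 were lower and 0 higher with miR-708 (limma), beside 11.4% and 9.88% of all genes. Tight junction genes gave 0 calls of 12 with miR-28 and 1 lower with miR-708 in MCF10A by limma. In RPE-1, 1 of 7 was higher and 1 lower with miR-28, and 3 and 2 with miR-708. There TJP1, a scaffold protein of the tight junction plaque, was lower at -0.45 and -0.65.

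Hemidesmosomes bind keratins to the basement membrane and use the plakins plectin and BP230, the product of DST. In RPE-1, 5 of the 7 hemidesmosome genes listed were called higher with each mimic (limma), beside 23.3% and 30.9% of all genes. Without siNT replicate 3 the call of LAMB3 with miR-28 was lost (adjusted p = 0.0524). LAMA3, a laminin chain, rose from 14.1 ± 2.33 (SD, n = 3) to 179 ± 170 and 628 ± 112, with log2 fold changes of 3.13 (limma, adjusted p = 0.000886) and 5.38 (adjusted p = 1.23e-05). COL17A1, the hemidesmosomal collagen, rose from 5.52 ± 1.67 to 24.2 ± 21.4 and 101 ± 28.7, at 1.65 (adjusted p = 0.0216) and 3.97 (adjusted p = 6.74e-05). With miR-708, ITGB4 at -1.59 and CD151 at -0.73 were called lower, and CD151 was also called lower with miR-28 when siNT replicate 3 was left out (-0.43, adjusted p = 0.00978). In MCF10A, 1 of 7 was lower with miR-28 and 2 with miR-708, beside 12% and 17.3% of all genes. ITGA6, the integrin chain that pairs with ITGB4, was lower in MCF10A at -0.96 (adjusted p = 0.00552) and -1.11 (adjusted p = 0.00139), and higher in RPE-1 at 0.58 (adjusted p = 0.0241) and 1.35 (adjusted p = 0.000102).

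PPL and EVPL also belong to the cornified envelope, for which 12 of 14 other listed genes were tested in MCF10A. With each mimic 5 of the 12 were called lower, and 1 and 2 were called higher. Of all genes in MCF10A, 12% and 17.3% were called lower and 10.7% and 15.5% higher. SPRR3, a small proline-rich envelope protein, fell from 767 ± 138 (SD, n = 3) to 142 ± 58.2 and 166 ± 66.8, at -2.49 (limma, adjusted p = 0.000723) and -2.27 (adjusted p = 0.000519). TGM1, the transglutaminase that cross-links the envelope, fell from 4134 ± 1463 to 985 ± 359 and 1105 ± 403, at -2.08 (adjusted p = 0.00155) and -1.91 (adjusted p = 0.00116). SPRR1A, SPRR1B and CSTA were the other 3 that were lower, and SPRR2D was higher with both mimics. In RPE-1, 2 of the 14 were tested, and TGM5 was called higher with both mimics.

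Transcriptional regulators and proteases linked to these genes were counted as well. In MCF10A, 1 of 14 epithelial regulators was lower with miR-28 and 5 of 14 with miR-708, with 1 higher each. TP63, the regulator of basal epithelial identity, was lower at -1.08 (limma, adjusted p = 0.00461) and -1.29 (adjusted p = 0.000915), and KLF4 was higher at 0.95 (adjusted p = 0.00510) and 1.36 (adjusted p = 0.000362). In RPE-1, KLF4 rose from 6.45 ± 3.63 (SD, n = 3) to 190 ± 153 and 556 ± 152, and 1 and 3 of 6 regulators were called higher. TP63 was the 1 regulator called lower there, with miR-708 at -1.22 (adjusted p = 0.0209). Of 6 repressors of epithelial genes tested in MCF10A, 1 was called higher and 2 lower with miR-28, and 3 higher and 0 lower with miR-708. Of 7 in RPE-1, 3 were called higher and 0 lower with miR-28, and 4 higher and 2 lower with miR-708. ZEB1 was higher in MCF10A at 1.06 (limma, adjusted p = 0.0453) and 1.21 (adjusted p = 0.0193). SNAI2 at 0.58 and 0.60 and TWIST2 at 0.53 and 1.303 were higher in RPE-1, while SNAI2 at -0.64 and TWIST2 at -0.53 were lower in MCF10A with miR-28. The call of TWIST2 with miR-28 in RPE-1 was lost without siNT replicate 3 (adjusted p = 0.0502). Cadherin-cleaving proteases gave 0 to 2 calls in each direction in every comparison with siNT, of 9 tested in MCF10A and 6 in RPE-1.

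**Figure D5:**
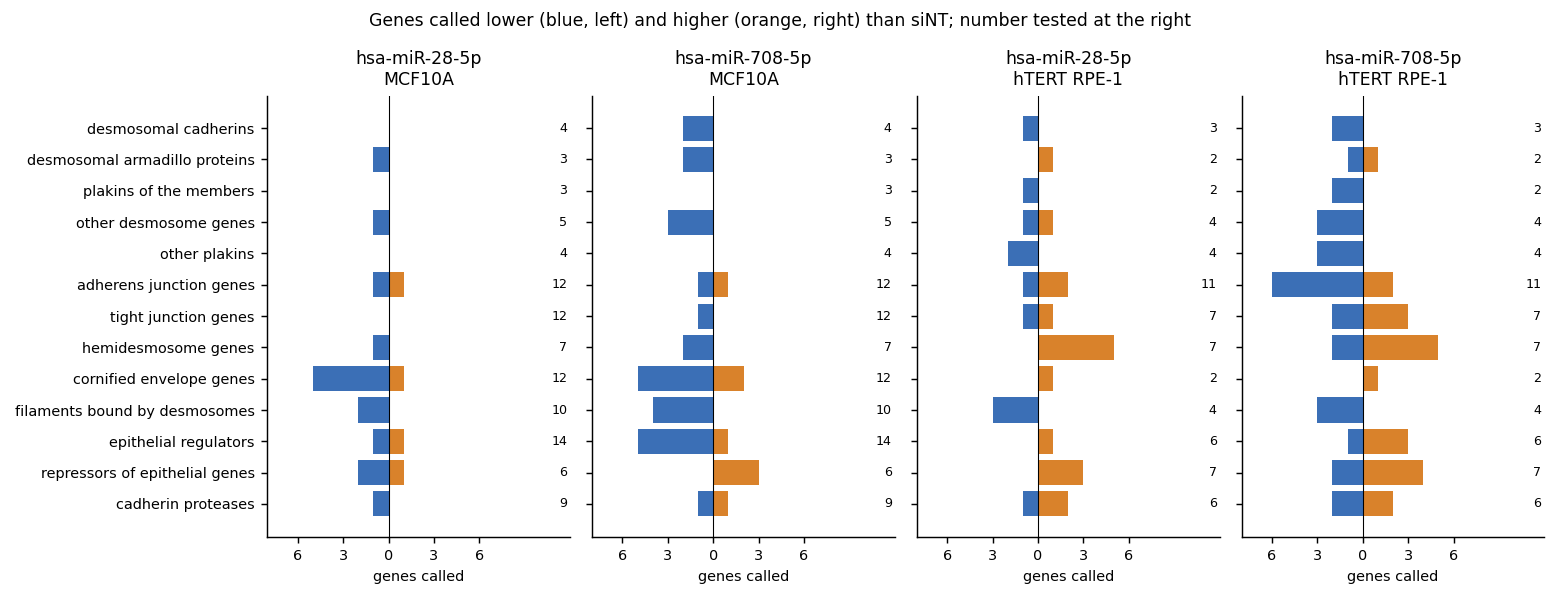
Number of genes called lower (left of 0) and higher (right of 0) than siNT in each gene list, by line and mimic (limma, adjusted p below 0.05), with the number tested at the right of each panel. The 3 lists at the top hold the 10 members, and hemidesmosome genes show 5 calls higher with each mimic in RPE-1. Of all genes there, 23.3% (miR-28) and 30.9% (miR-708) were called higher.

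For each member called with at least 1 mimic, the gene with the most similar profile over the 9 libraries of the line was sought among genes with a mean value of at least 100 (11250 in MCF10A and 11434 in RPE-1). The points of each correlation share the treatment groups and library scaling, so these are descriptions without a test. In MCF10A, the closest profiles were PMS2 for DSG3 (Pearson's r = 0.98), FAM168B for DSC3 (0.99), RNF165 for PKP1 (0.98) and F11R, a tight junction adhesion protein, for JUP (0.99). In RPE-1, they were CLIP3 for DSC2 (0.995), TMLHE for DSC3 (0.98), COL4A2 for DSP (0.97), MET for PKP3 (0.98), NFIX for JUP (0.997) and NSD1 for PPL (0.995). Likeness of profile does not mean likeness of size, since NSD1 differed from siNT by -0.46 and -0.67 on the log2 scale, against -2.93 and -4.45 for PPL.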

How the data were processed

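RNAseq of polyadenylated RNA, 3 biological replicates per group, gave 1 table per cell line. After adapter trimming, the authors used HISAT2 2.1.0 to align to hg38, quantified RefSeq transcripts with the Partek Flow E/M algorithm and tested differences with DESeq2. The deposited expression signal of a gene holds its estimated reads in a library after scaling by the median of ratios, so a change shared by most genes is scaled away. Other columns the authors deposited hold their own p-values, FDR, ratios and group means, and were not used. Of the columns that hold a library, 0 were left out. Between 78.5% and 83.0% of values between 1 and 20 were within 0.01 reads of a whole multiple of a library's step, so whole reads were not recovered and no test for counts was run.

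The scale of all tests was log2(value + 1). Genes at 10 or above in 3 or more of a line’s 9 libraries were fitted with 3 group means in limma 3.58.1 (R 4.3.3), with a mean trend, over all 9 libraries. A call means an adjusted p below 0.05 (Benjamini-Hochberg over all genes tested). Fold changes of the lines were compared over 13339 genes with Welch–Satterthwaite degrees of freedom. With 3 libraries against 3, an exact two-sided permutation test cannot go below p = 0.1, so none is given. The replicates are called biological, without their cultures or days being given. The p-values set differences of group means against the spread between these samples, which limma moderates over all genes.

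The members and all gene lists were chosen with earlier results of these data known. Besides the members and every gene of the list of other desmosome genes, each list is named by the 2 genes with the largest mean change among those called with both mimics. One gene under this rule is not reported here. PLEC, DST, KRT18, VIM, ITGB4, CD151, SPRR1A, SPRR1B, SPRR2D, CSTA and CD14 were added after their values were seen. Transcripts and 3′ UTRs were those of GENCODE 44, with 1 transcript per gene. Gene positions are those of RefSeq on GRCh38.p14. In MCF10A, deviations from group means correlated between same-numbered libraries at 0.26, 0.18 and 0.11 (miR-28 with siNT) and 0.30, 0.11 and 0.16 (miR-708 with siNT). In RPE-1 they did so at 0.28, 0.20 and 0.13 between the mimics. For the other pairs of groups at least 1 correlation was below 0.1. Correlations of differently numbered libraries are not given for reference, and the block was fitted to all 9 libraries of a line. Whether the numbers pair the groups is therefore not settled. Alternatives were a pseudocount of 0.5, no filter or one of at least 50, scaling by library total or by TMM (trimmed mean of M values, own implementation), the replicate number as a block, a fit of only the groups compared, no mean trend, and each library left out in turn, to which the other genes of RPE-1 without siNT replicate 3 or miR-28 replicate 1 were added after seeing the data. Tables and figures were made in Python 3.11.15 (matplotlib 3.10.9, numpy 2.4.6, pandas 2.3.3).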

Additional observations from a re-analysis of the deposited data

Results flagged for a closer look

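The responses listed here differed between the cell lines in the test of the difference itself (limma fits of each line, Welch–Satterthwaite degrees of freedom, Benjamini-Hochberg adjustment), given as the log2 response in RPE-1 minus that in MCF10A. With miR-28, 23.4% of all genes differed. For PPL the difference was -2.73 ± 0.29 (SE; adjusted p = 4.15e-06), with responses of -2.93 and -0.20. For DSC2 it was -0.9998 ± 0.25 (adjusted p = 0.00814), with responses of -0.94 and 0.06. For PKP3 it was 1.42 ± 0.40 (adjusted p = 0.0221), with responses of 1.16 and -0.25, and the call was lost without RPE-1 siNT replicate 2 (1.38, adjusted p = 0.0614) or miR-28 replicate 3 (1.04, adjusted p = 0.0718).

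With miR-708, 39.8% of all genes differed. For PPL the difference was -4.03 ± 0.29 (adjusted p = 1.05e-08), with responses of -4.45 and -0.42. For PKP3 it was 2.20 ± 0.40 (adjusted p = 0.000776), for DSC2 -1.36 ± 0.25 (adjusted p = 0.000333) and for JUP -1.09 ± 0.25 (adjusted p = 0.00131). These 4 differences kept their call under all 26 alternatives. The mimic and siNT libraries of each line are the only ones behind each response. With siNT, the mean values of the 7 members analysed in both lines were lower in the RPE-1 table (for DSG2 with overlapping ranges) than in the MCF10A table, which were scaled separately.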

How the results depend on the processing

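The numbers of members called were recomputed under each alternative. With the replicate number as a block, the 1 member called with miR-28 in MCF10A became 3 and the 4 with miR-708 became 8, and with no mean trend they became 0 and 2. In the comparison of the mimics in RPE-1, the block left 4 calls. For miR-28 against siNT there, it added JUP (4 calls), where same-numbered libraries correlated at only 0.021, 0.043 and 0.023. Leaving out each library gave 0 to 2 and 2 to 5 calls in MCF10A with the mimics against siNT, 0 between the mimics, 2 to 4 and 4 to 6 in RPE-1, 3 to 4 between its mimics, and 2 to 4 and 4 for the differences between lines.

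Scaling by library total shifts the median of all genes to 0.12 and 0.14 in MCF10A and to 0.09 and 0.32 in RPE-1, and the share of calls that are higher from 47.1% and 47.3% to 66.2% and 67.6% and from 49.9% and 49.7% to 59.4% and 71.9%. The sign turned under it for EVPL with miR-28 in MCF10A (0.069), for DSG2 in RPE-1 with miR-28 (0.035) and miR-708 (0.28, adjusted p = 0.0295, limma), and for the differences between lines of DSG2 (0.0025) and DSC3 (0.032) with miR-708. Relative to the shifted medians, DSG2 was not above other genes in RPE-1.

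Leaving out 1 library turned signs of small, uncalled values. The ranges were, with miR-28 in MCF10A, -0.27 to 0.11 for EVPL, -0.042 to 0.096 for DSG2 and -0.18 to 0.27 for DSC2. Between the mimics they were -0.22 to 0.066 for DSG3 in MCF10A and -0.035 to 0.083 for DSG2 in RPE-1. They were -0.066 to 0.019 for DSG2 with miR-708 in RPE-1, and -0.25 to 0.13 for DSP and -0.29 to 0.013 for JUP in the differences between lines with miR-28. The cause was not tested. Calls that held throughout were PPL and DSC2 with both mimics, JUP and PKP3 with miR-708 in RPE-1, and DSC3 and PKP1 with miR-708 in MCF10A. Depth limits PKP1 and, in RPE-1, PKP3, whose values were closest to the floor of 3 reads.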
